A study of Mus musculus with 4 samples.

Results

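Interferon, RNA sensing and NF-kB genes were followed across mouse embryonic stem (ES) cells with and without p53 and with and without a DNA-damaging drug. The set holds 38 genes, defined by a list of gene symbols. All 38 were found, as 55 transcripts, among the 22408 genes and 30769 transcripts of the deposited tables. They were read in 6 roles: 4 RNA sensing genes, 6 interferon regulatory factors, 5 genes of interferon receptors and STAT2, 12 interferon-stimulated effectors, 7 NF-kB subunits and regulators, and 4 genes of chemokines and adhesion.

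The ES cells came from a strain labelled C57BL/6X129Sv mix and were kept in serum with leukemia inhibitory factor. The 4 groups were untreated p53+/+ cells, p53+/+ cells given 0.5 uM Adriamycin for 8 h, untreated p53-/- cells, and p53-/- cells given the same dose for the same time. Adriamycin (doxorubicin) is an anthracycline that traps topoisomerase II on DNA and causes double-strand breaks. Each group had 1 library of poly(A) RNA, so nothing below could be checked against replicates or tested. Whether each genotype was 1 clone, and which part of the p53 gene was deleted, is not given in the sources used here.

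RNA sensors such as RIG-I and MDA5 recognise foreign or misplaced RNA in the cytoplasm and signal through the adaptor MAVS to the transcription factors IRF3 and NF-kB. These switch on interferons and chemokines, and secreted interferon then acts through its receptors and a complex that holds STAT2 and IRF9 to raise interferon-stimulated genes. NF-kB is held inactive by IkB proteins until they are degraded, and DNA breaks are among the signals known to release it. Mouse ES cells are known for making little interferon and for a weak response to it.

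Values are FPKM, fragments scaled to transcript length and library size, summed over the transcripts of a gene. Differences were taken between values of log2(FPKM + 1), so the change of a low gene is understated. The step for calling a gene higher or lower was a difference of 1, and a gene was compared if it reached 1 FPKM in at least 1 library. On this scale a gene below 1 FPKM in the library subtracted cannot be called lower. The response difference is the response of p53+/+ cells less that of p53-/- cells. The 5 comparisons share libraries and are therefore not independent of each other. Bounds quoted with an FPKM are the 95% bounds of Cufflinks, which cover counting and assignment error only.

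The libraries held 3.34 to 4.32 gigabases of aligned sequence. Trp53, the p53 gene, stood at 216 FPKM in p53+/+ cells before and 165 FPKM after the drug, and at 78.6 and 76.5 FPKM in the p53-/- cells, so its RNA was lower but still present. Mdm2, a direct p53 target, stood at 32.6 and 257 FPKM in p53+/+ cells and at 17.7 and 19.9 FPKM in p53-/- cells, and Cdkn1a, another target, at 26.2, 85.8, 18.0 and 24.6 FPKM in the same order. All 8 ES cell markers were at 77.3 FPKM or more in every library, with sums of 4323, 2917, 3084 and 2699 FPKM. After the drug in p53+/+ cells, Nanog (310 to 105 FPKM, -1.55) and Zfp42 (289 to 84.7 FPKM, -1.76) were lower. The other ES cell markers reached no step in that comparison. The 12 fibroblast markers summed to 11.1 and 17.2 FPKM in p53+/+ cells and to 353 and 306 FPKM in p53-/- cells. The largest parts of the sum in untreated p53-/- cells were Col1a1 and Col1a2, at 151 and 69.7 FPKM. Col3a1, Dcn, Lum and Postn were listed at 0 in both p53+/+ libraries and none of the 12 was at 0 in p53-/- cells. Pdgfra went the other way, at 2.22 and 2.23 FPKM in p53+/+ cells and 0.898 and 1.03 FPKM in p53-/- cells. The 9 leukocyte markers measured summed to 1.55 to 3.81 FPKM, and Ptprc, which defines leukocytes, was listed at 0 in 3 libraries and at 0.0194 FPKM in untreated p53-/- cells. The 7 primitive endoderm markers summed to 22.1 and 19.5 FPKM in p53+/+ cells and to 2.58 and 3.42 FPKM in p53-/- cells. In such bulk RNA, fewer cells of a type and less RNA per cell cannot be told apart.

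Promoters of some members hold letters of the elements through which these pathways act. RefSeq windows of GRCm38.p6, from 250 bases before to 50 bases after a transcription start, were found for 32 of the 38 members, as 38 windows. Ccl2, Mx1, Mx2, Nfkb1, Relb and Usp18 had no window in the table. Both strands were searched for the core of the interferon-stimulated response element (ISRE, GAAANNGAA, bound by IRFs and by the complex of STAT2 and IRF9), the gamma-activated site (GAS, TTCNNNGAA, bound by STAT dimers), the NF-kB consensus and the p53 half-site. Matches of a motif may overlap each other. The ISRE core was in 31.6% of the member windows and in 8.56% of all 32851 windows, and the GAS in 28.95% and 8.30%. The NF-kB consensus was in 31.6% of the member windows and in 4.505% of all windows, and the p53 half-site in 2.63% and 8.36%. The only member window with a p53 half-site belonged to Ifit2. These are matches of letters, not measured binding.

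The 6 promoters below are examples chosen after the values were seen. Cxcl10 was higher and Ddx58 lower after the drug in p53+/+ cells, Irf1, Isg15 and Oas1a reached the step between genotypes, and Ifit1 has 3 ISRE cores and stayed below 1 FPKM in every library. Each sequence is written 5′ to 3′ on the strand of its gene, in lower case, with matches to the ISRE core, the GAS and the NF-kB consensus on either strand in capitals. Cxcl10 is at chr5:92348840-92349139 on the minus strand, with an ISRE core 213 bases and NF-kB matches 159 and 103 bases upstream of the start. Ddx58 is at chr4:40239776-40240075 on the minus strand, with an ISRE core just after the start. Irf1 is at chr11:53769764-53770063 on the plus strand, with a GAS 90 bases and an NF-kB match 13 bases upstream. Isg15 is at chr4:156200769-156201068 on the minus strand, with overlapping ISRE cores 78, 72 and 66 bases upstream. Oas1a is at chr5:120907476-120907775 on the minus strand, with a GAS 98 bases and ISRE cores 20 and 14 bases upstream. Ifit1 is at chr19:34640639-34640938 on the plus strand, with ISRE cores 109, 103 and 84 bases upstream.
Cxcl10: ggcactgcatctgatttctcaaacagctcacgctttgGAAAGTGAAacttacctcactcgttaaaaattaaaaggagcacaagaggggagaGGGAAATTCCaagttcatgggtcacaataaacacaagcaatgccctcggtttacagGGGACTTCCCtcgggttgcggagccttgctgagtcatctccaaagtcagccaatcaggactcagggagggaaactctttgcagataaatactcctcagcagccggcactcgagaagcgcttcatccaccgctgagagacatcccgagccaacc
Ddx58: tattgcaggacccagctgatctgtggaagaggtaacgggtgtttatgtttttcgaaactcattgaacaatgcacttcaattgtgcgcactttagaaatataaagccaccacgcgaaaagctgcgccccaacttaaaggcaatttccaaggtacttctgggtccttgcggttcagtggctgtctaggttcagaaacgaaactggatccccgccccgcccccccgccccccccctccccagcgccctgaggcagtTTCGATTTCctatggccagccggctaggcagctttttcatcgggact
Irf1: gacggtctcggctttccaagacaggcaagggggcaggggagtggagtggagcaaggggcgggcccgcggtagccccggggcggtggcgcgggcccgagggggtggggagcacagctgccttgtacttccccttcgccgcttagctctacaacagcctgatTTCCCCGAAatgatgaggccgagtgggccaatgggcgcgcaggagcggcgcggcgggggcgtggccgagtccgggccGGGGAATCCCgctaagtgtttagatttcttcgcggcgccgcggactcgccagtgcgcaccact
Isg15: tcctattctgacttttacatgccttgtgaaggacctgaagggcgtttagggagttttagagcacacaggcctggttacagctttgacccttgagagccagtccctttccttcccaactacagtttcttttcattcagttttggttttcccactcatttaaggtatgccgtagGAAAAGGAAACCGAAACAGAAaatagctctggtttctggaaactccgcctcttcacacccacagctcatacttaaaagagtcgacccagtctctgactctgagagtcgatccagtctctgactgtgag
Oas1a: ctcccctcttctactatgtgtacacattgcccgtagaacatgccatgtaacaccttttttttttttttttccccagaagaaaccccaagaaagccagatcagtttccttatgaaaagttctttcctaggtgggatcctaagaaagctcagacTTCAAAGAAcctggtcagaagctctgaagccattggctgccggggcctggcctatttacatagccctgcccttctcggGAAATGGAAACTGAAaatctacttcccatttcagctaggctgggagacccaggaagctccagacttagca
Ifit1: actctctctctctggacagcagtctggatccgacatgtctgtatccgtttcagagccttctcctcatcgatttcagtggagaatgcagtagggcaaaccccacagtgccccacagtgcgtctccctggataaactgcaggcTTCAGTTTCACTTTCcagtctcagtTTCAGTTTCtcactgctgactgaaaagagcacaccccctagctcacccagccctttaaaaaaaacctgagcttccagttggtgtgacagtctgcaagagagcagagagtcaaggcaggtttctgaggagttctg

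The members spanned silent genes and genes of high level. Of the 38 members, 22 were at 1 FPKM or more in all 4 libraries, 12 were below 1 FPKM in all 4, and 4 (Isg15, Birc3, Cxcl10 and Ccl2) were on both sides. The filter therefore kept 26 members. Between 12 and 15 members were below 1 FPKM in a given library, and 5 were listed at 0 in untreated p53+/+ cells, 2 in treated p53+/+ cells and none in p53-/- cells. The median FPKM of the members was 2.11, 2.74, 3.31 and 3.66 in untreated and treated p53+/+ and untreated and treated p53-/- cells. The median of all genes past the filter was 8.19, 9.22, 7.84 and 8.31 FPKM in the same order. The highest members in untreated p53+/+ cells were Bst2, Icam1 and Nfkbia, followed by Nfkb1 and Irf1.

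**Figure D1:**
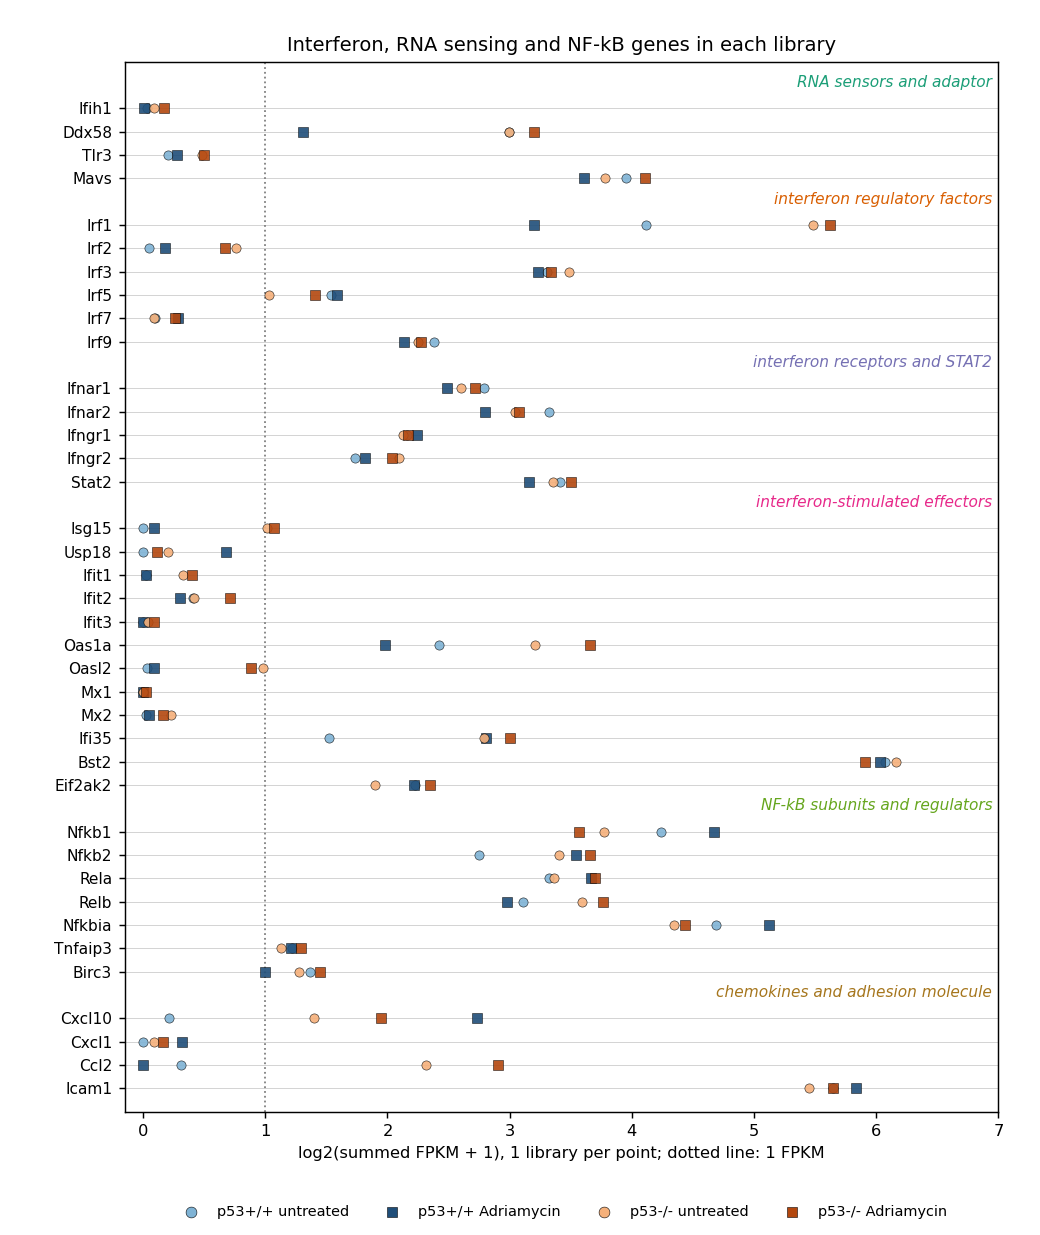
Level of each of the 38 members in the 4 libraries as log2(FPKM + 1), grouped by role. Circles are untreated and squares Adriamycin-treated cells, blue is p53+/+ and orange p53-/-, each point is 1 library, and the dotted line marks the filter of 1 FPKM. Bst2 and Icam1 lie farthest right in untreated p53+/+ cells, at 66.3 and 49.2 FPKM, while most interferon-stimulated effectors lie left of the line.

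Among the RNA sensors, Ddx58 set treated p53+/+ cells apart from the other 3 libraries. Ddx58 encodes RIG-I, the sensor of short double-stranded RNA with a triphosphate end, and its row spans chr4:40150810-40186858 in mm9. It stood at 6.99 FPKM (bounds 6.35 to 7.59) in untreated and 1.48 FPKM (1.25 to 1.71) in treated p53+/+ cells. In p53-/- cells it stood at 6.97 FPKM (6.30 to 7.62) untreated and 8.19 FPKM (7.44 to 8.88) treated. The treated p53+/+ library was thus the low one, and its bounds do not meet those of any other library. Read coverage of the Ddx58 transcript was 39.0, 7.98, 29.6 and 37.4 in the same order of libraries. The p53+/+ response was -1.69, a 4.72-fold lower FPKM after the drug, and the p53-/- response was 0.21. With the drug, Ddx58 was 5.54-fold higher in p53-/- than in p53+/+ cells (difference 1.89), and the response difference was -1.89.

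Of the other sensing genes, Mavs reached no step, and Ifih1 and Tlr3 were too low to compare. Mavs, the mitochondrial adaptor downstream of RIG-I and MDA5, stood at 14.5 FPKM in p53+/+ cells before and 11.2 FPKM after the drug and at 12.7 and 16.2 FPKM in p53-/- cells. Its main transcript carried 81.0% to 92.8% of that FPKM. The responses of Mavs, -0.34 in p53+/+ and 0.33 in p53-/- cells, were both short of 1. Ifih1, which encodes MDA5, the sensor of long double-stranded RNA, ran from 0.00730 to 0.123 FPKM. Tlr3, the endosomal receptor for double-stranded RNA, ran from 0.150 to 0.413 FPKM. Both were below the filter in all 4 libraries, so Ddx58 was the one sensor gene read in this role with RNA above it. Eif2ak2 and Oas1a, whose products also act on double-stranded RNA, are given with the effectors.

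Irf1 was the member that separated the genotypes most among the interferon regulatory factors. IRF1 is an activator of interferon-stimulated genes and is itself induced by interferon gamma and NF-kB. Irf1 (chr11:53583516-53591876) stood at 16.3 FPKM in p53+/+ cells before and 8.21 FPKM after the drug, and at 43.7 and 48.2 FPKM in p53-/- cells. Both p53-/- libraries were above both p53+/+ libraries, and the treated p53+/+ library was the lowest. The main transcript, 94.4% to 100% of the gene's FPKM, had bounds of 15.0 to 17.6, 6.92 to 8.58, 40.7 to 45.9 and 45.5 to 50.6 FPKM in that order. Irf1 was 2.68-fold higher in p53-/- cells without the drug (difference 1.37) and 5.87-fold higher with it (2.42). Its p53+/+ response was -0.91, just short of the step, its p53-/- response was 0.14, and the response difference was -1.05. Under median ratio scaling that response difference was -0.97, short of the step.

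Irf3, the factor activated directly by RNA sensing, ran from 8.40 to 10.2 FPKM, and Irf5, a related activator of cytokine genes, from 1.04 to 2.00 FPKM. Irf9, the DNA-binding part of the complex with STAT2, stood at 4.20, 3.38, 3.75 and 3.83 FPKM in untreated and treated p53+/+ and untreated and treated p53-/- cells. No difference of these 3 genes reached 1 in any comparison. The Irf9 sum hides a shift among its 3 transcripts, since 1 of them carried 53.3%, 88.9%, 1.57% and 53.2% of the gene's FPKM in the 4 libraries. Irf2, an antagonist of IRF1, was at 0.0318 and 0.132 FPKM in p53+/+ and at 0.695 and 0.593 FPKM in p53-/- cells. Irf7, which amplifies interferon production, was at 0.0613 to 0.216 FPKM. Both were below the filter.

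The genes for receiving interferon were expressed in every library and differed little in summed FPKM. Ifnar1 and Ifnar2 encode the chains of the type I interferon receptor. Ifnar1 ran from 4.59 to 5.92 FPKM and Ifnar2 from 5.97 to 8.98 FPKM, both lowest in treated p53+/+ cells. The shorter Ifnar2 transcript (1169 bases) carried 92.3% to 96.8% of the Ifnar2 FPKM. The longer one (3045 bases) stood at 0.228 to 0.461 FPKM, below 1 FPKM in every library. Ifngr1 and Ifngr2, the chains of the interferon gamma receptor, ran from 3.36 to 3.74 and from 2.33 to 3.26 FPKM. Stat2, which carries the type I interferon signal to the nucleus, stood at 9.63, 7.91, 9.24 and 10.3 FPKM. Of these 5 genes, 0 reached a difference of 1 in any comparison. Ifnar2 in the p53+/+ response, at -0.52, was the widest among the drug responses of the 5 genes.

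Most interferon-stimulated effectors were near silent, and the few that were not went in different directions. Of 12 effectors, 7 were below 1 FPKM in all 4 libraries: Usp18, Ifit1, Ifit2, Ifit3, Oasl2, Mx1 and Mx2. Mx1 and Mx2, GTPases that block viral replication, did not exceed 0.0174 and 0.173 FPKM in the transcripts that carry their names. A transcript left without a name overlaps Mx1 and was not added to its sum. It stood at 0 FPKM in p53+/+ cells before and 0.131 FPKM after the drug, and at 0.0372 and 0.000125 FPKM in p53-/- cells. Its highest library was thus treated p53+/+ cells, while that of the named Mx1 transcript was treated p53-/- cells. The Ifit proteins bind viral RNA, and Ifit1, Ifit2 and Ifit3 reached at most 0.323, 0.641 and 0.0607 FPKM. Usp18, the protease that removes ISG15, was listed at 0 in untreated p53+/+ cells and stood at 0.596 FPKM after the drug, against 0.153 and 0.0834 FPKM in p53-/- cells. Oasl2, an OAS-like protein, was at 0.0247 and 0.0641 FPKM in p53+/+ cells and at 0.968 and 0.848 FPKM in p53-/- cells, just under the filter.

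Isg15, Oas1a and Ifi35 were the effectors with a difference of at least 1. Isg15, a ubiquitin-like modifier (chr4:155573533-155574927), was listed at 0 in untreated p53+/+ cells and stood at 0.0662 FPKM in treated p53+/+ cells. It stood at 1.01 FPKM (bounds 0.385 to 1.54) and 1.10 FPKM (0.463 to 1.68) in untreated and treated p53-/- cells. The p53-/- libraries were the higher ones but only just reached the filter, with a read coverage of 3.92 and 5.37. The genotype difference was 1.01 without the drug, just inside the step, and 0.98 with it, just outside.

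Oas1a, a synthase of the 2-5A messenger that activates RNase L (chr5:121346266-121357534), stood at 4.35 FPKM (3.45 to 5.07) and 2.94 FPKM (2.29 to 3.49) in untreated and treated p53+/+ cells. In p53-/- cells it stood at 8.26 FPKM (6.75 to 9.09) and 11.6 FPKM (9.59 to 12.2). Both p53-/- libraries were above both p53+/+ libraries. Oas1a was 1.90-fold higher in p53-/- cells without the drug (0.79, short of the step) and 3.95-fold higher with it (1.68). Because mouse Oas1 genes are close copies of each other, reads could be assigned to the wrong copy.

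Ifi35, an interferon-induced leucine zipper protein (chr11:101309726-101320015), was low in untreated p53+/+ cells alone. It stood at 1.87 FPKM (1.28 to 2.35) there, at 5.99 FPKM (4.57 to 6.57) in treated p53+/+ cells, and at 5.93 FPKM (4.46 to 6.77) and 6.999 FPKM (5.27 to 7.59) in untreated and treated p53-/- cells. Its p53+/+ response was 1.28 (3.20-fold), its p53-/- response 0.21, and the response difference 1.08. Under quantile normalization the p53+/+ response of Ifi35 was 0.98 and its response difference 0.88, both short of the step. Without the drug it was 3.17-fold higher in p53-/- cells (1.27), and with the drug the genotypes differed by 0.19.

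Bst2, or tetherin, which holds budding virus at the cell surface, was the highest member in all 4 libraries, at 66.3, 64.4, 70.5 and 59.0 FPKM. All 4 of these FPKM lie above the transcript's own upper bound, so its bounds are not used. Eif2ak2 encodes PKR, the kinase that stops translation on double-stranded RNA, and ran from 2.73 to 4.09 FPKM. Neither reached a difference of 1 in any comparison.

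All 7 NF-kB subunits and regulators passed the filter, and Nfkb1 alone among them reached the step. Nfkb1 encodes p105, the precursor of p50 (chr3:135247619-135354511). It stood at 17.9 FPKM (16.4 to 18.5) and 24.6 FPKM (22.7 to 25.2) in untreated and treated p53+/+ cells, and at 12.6 FPKM (11.5 to 13.6) and 10.9 FPKM (9.82 to 11.6) in p53-/- cells. Treated p53+/+ cells were the highest library and both p53-/- libraries were below both p53+/+ libraries. With the drug, Nfkb1 was 2.26-fold higher in p53+/+ than in p53-/- cells (-1.11 as p53-/- minus p53+/+), while the responses were 0.44 and -0.20.

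Nfkb2, the p100 precursor of p52, stood at 5.72 FPKM in untreated p53+/+ cells and at 10.7, 9.60 and 11.6 FPKM in the other 3 libraries in order. Its p53+/+ response of 0.80 was the highest among the members that reached no step. With the main transcript of Nfkb2 alone in place of the sum, this response was 1.22. Relb, the partner of p52, stood at 7.62 and 6.86 FPKM in p53+/+ and at 11.1 and 12.6 FPKM in p53-/- cells. Rela, the p65 subunit, stood at 9.01 and 11.7 FPKM in p53+/+ and at 9.31 and 12.0 FPKM in p53-/- cells, with responses of 0.34 and 0.33. Nfkbia encodes IkB alpha, the inhibitor that is also an NF-kB target, and stood at 24.8, 33.9, 19.3 and 20.6 FPKM, with a p53+/+ response of 0.44 and a p53-/- response of 0.09. Tnfaip3 (A20, a deubiquitinase that ends NF-kB signalling) ran from 1.19 to 1.45 FPKM, and Birc3 (cIAP2, a ubiquitin ligase) from 0.994 to 1.73 FPKM.

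The chemokine Cxcl10 had the widest response of all 38 members. CXCL10 attracts T cells through CXCR3, and its gene (chr5:92775665-92777915) responds to interferon and to NF-kB. It stood at 0.161 FPKM (0.0331 to 0.265) in untreated and 5.66 FPKM (4.06 to 6.09) in treated p53+/+ cells. In p53-/- cells it stood at 1.64 FPKM (0.970 to 2.29) untreated and 2.86 FPKM (1.87 to 3.54) treated. Untreated p53+/+ cells were the lowest library and treated p53+/+ cells the highest, with bounds that meet those of no other library. Read coverage was 0.709, 30.3, 6.76 and 13.3 in the same order. Cxcl10 was 35.2-fold higher after the drug in p53+/+ cells (response 2.52) and 1.75-fold higher in p53-/- cells (0.55), a response difference of 1.97. Without the drug it was 10.2-fold higher in p53-/- cells (1.18), and with the drug it was 1.98-fold higher in p53+/+ cells (-0.79 as p53-/- minus p53+/+).

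Cxcl10 lies inside the span of another gene, Art3, whose FPKM was 0.0266, 4.20, 0.0351 and 0 in the same order of libraries. Strand is not given for these libraries, so reads of the overlapping genes cannot be told apart. Cxcl11, which also lies inside the span of Art3, stood at 0.00138, 1.78, 0.00186 and 0.00165 FPKM, and Cxcl9 was listed at 0 throughout. The high library of Cxcl10, Cxcl11 and Art3 was thus the same one, treated p53+/+ cells.

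Ccl2, the monocyte chemokine MCP-1 (chr11:81849079-81850954), was the member with the widest difference between genotypes, and was low or listed at 0 in p53+/+ cells. It stood at 0.238 FPKM (0.0451 to 0.406) in untreated p53+/+ cells and was listed at 0 after the drug. In p53-/- cells it stood at 3.96 FPKM (2.41 to 4.69) untreated and 6.47 FPKM (4.07 to 6.78) treated. Ccl2 was 16.7-fold higher in untreated p53-/- cells (2.00), and the genotype difference with the drug was 2.90, with no ratio given against a value of 0. The p53-/- response of 0.59 was the largest of any member past the filter in that comparison. Cxcl1, a neutrophil chemokine, reached at most 0.247 FPKM. Icam1, the adhesion molecule bound by leukocyte integrins, stood at 49.2 and 56.0 FPKM in p53+/+ and at 42.8 and 49.1 FPKM in p53-/- cells and reached no step.

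**Figure D2:**
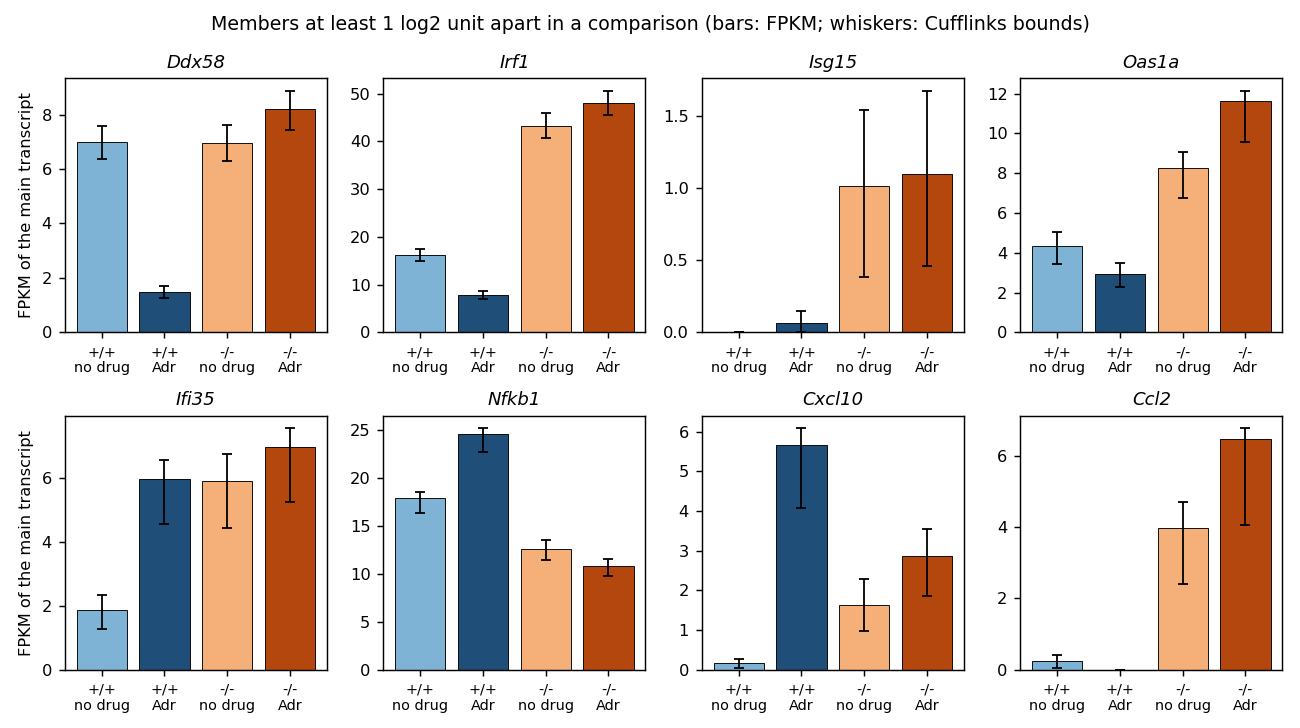
FPKM of the main transcript of the 8 members that reached a difference of 1 in at least 1 comparison, with each panel on its own scale from 0. Bars are the 4 libraries and whiskers the Cufflinks 95% bounds. Ddx58 is low in treated p53+/+ cells alone at 1.48 FPKM, Ifi35 in untreated p53+/+ cells alone at 1.87 FPKM, and Irf1, Isg15, Oas1a and Ccl2 are higher in both p53-/- libraries.

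In the p53+/+ response, 2 of the 26 members past the filter were counted higher (Cxcl10 and Ifi35) and 1 lower (Ddx58). Over all 13014 genes past the filter, 11.4% were higher and 2.78% lower. The members' shares were 7.69% and 3.85%, and their median difference was -0.03 against 0.05 over all genes. The counts of members in this comparison are therefore near the background. With a pseudocount of 5 FPKM, 1 member was higher (Cxcl10) and 0 were lower, beside 627 and 153 of all genes. The 18 members that reached no step in any comparison lay between -0.52 (Ifnar2) and 0.80 (Nfkb2).

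In the p53-/- response, 0 members were counted higher and 0 lower. The background was 0.377% higher and 0.461% lower, so hardly any gene of these cells reached the step. The member median was 0.16 and the median of all genes 0.07, and 22 of the 26 members lay above 0, where 8390 genes of all lay above and 4607 below. The 18 members without a step lay between -0.25 (Bst2) and 0.45 (Eif2ak2).

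**Figure D3:**
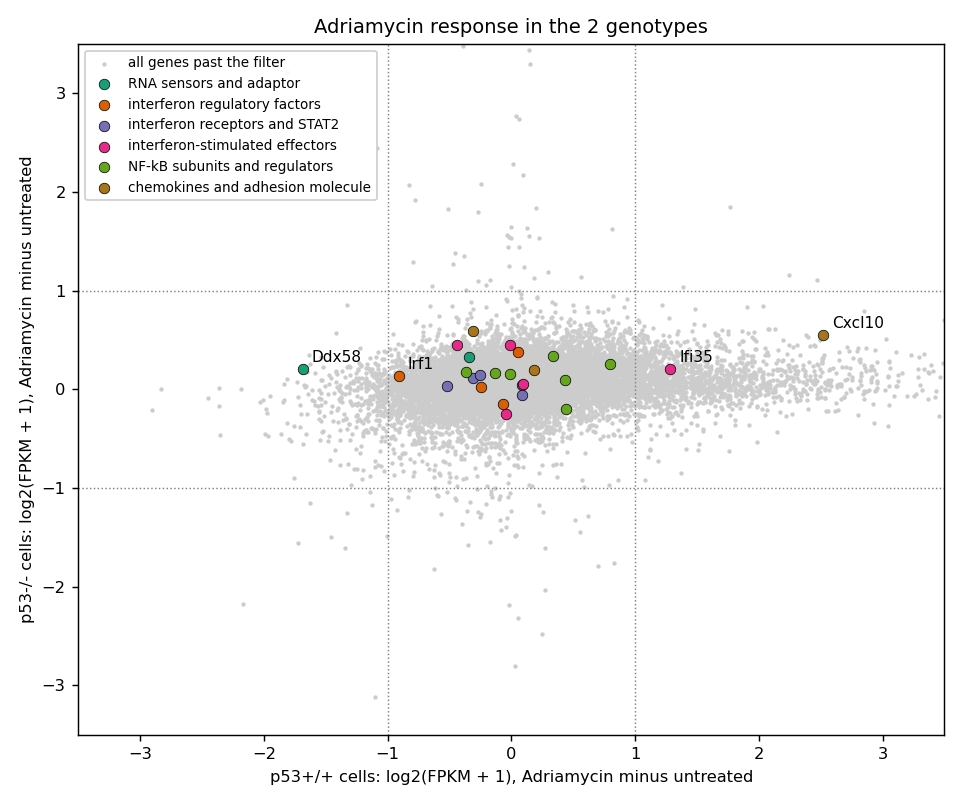
Response to Adriamycin in p53+/+ cells (horizontal) against the response in p53-/- cells (vertical), both as differences of log2(FPKM + 1). Coloured points are the 26 members past the filter by role, grey points all genes past it (30 lie outside the axes), and dotted lines mark a difference of 1. Cxcl10 (2.52) and Ifi35 (1.28) lie to the right, Ddx58 (-1.69) to the left, and no member lies past a horizontal line.

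In untreated cells, 5 of 26 members were counted higher in p53-/- than in p53+/+ cells (Ccl2, Irf1, Ifi35, Cxcl10 and Isg15) and 0 lower. Over all genes, 3.51% were higher and 3.14% lower, against 19.2% and 0% of the members. The median of the members was -0.02 and of all genes -0.05, so the difference sat in those few members and not in the middle of the set. With a pseudocount of 5 FPKM, 1 of the 5 (Irf1) stayed past the step, beside 136 of all genes higher and 122 lower, so this count rests on low genes. Isg15 and Ccl2 were below 1 FPKM in both p53+/+ libraries. They passed the filter only through the p53-/- libraries, where they are high, so a lower call was not open to them. Cxcl10, at 0.161 FPKM in untreated p53+/+ cells, could not be called lower in this comparison either. The filter was the same for all genes. Of the 11 fibroblast markers past the filter, 10 were also higher in untreated p53-/- cells, and the sum of the 12 was 353 FPKM against 11.1 FPKM. Their part in the result was not tested.

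In treated cells, 4 members were counted higher in p53-/- cells (Ccl2, Irf1, Ddx58 and Oas1a) and 1 lower (Nfkb1). The background was 6.72% higher and 13.0% lower, against 15.4% and 3.85% of the members. The member median was 0.17 and that of all genes -0.02. With a pseudocount of 5 FPKM, 4 members were higher and 0 lower, beside 336 and 795 of all genes. Ccl2 passed the filter only through the p53-/- libraries here too. Fibroblast markers were again higher in p53-/- cells, 9 of 11, with sums of 306 and 17.2 FPKM, and their part in the result was not tested.

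**Figure D4:**
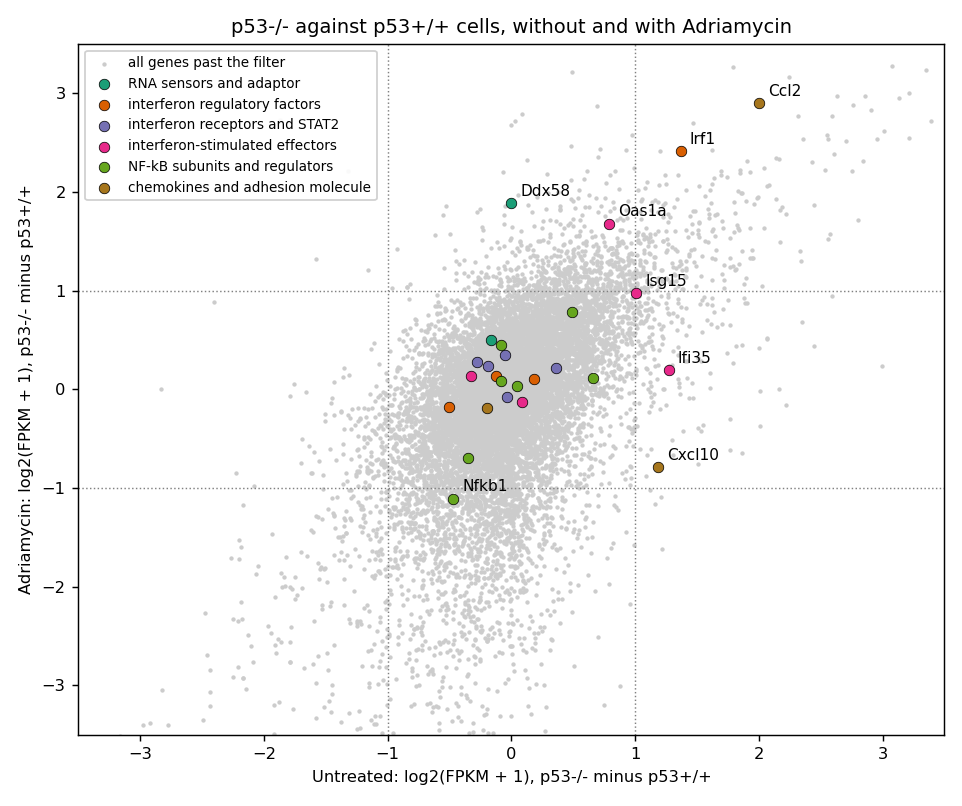
Difference between genotypes, p53-/- minus p53+/+, in untreated cells (horizontal) and in Adriamycin-treated cells (vertical), as differences of log2(FPKM + 1). Coloured points are the 26 members past the filter by role, grey points all genes past it (93 lie outside the axes), and dotted lines mark a difference of 1. Ccl2 (2.00 and 2.90) and Irf1 (1.37 and 2.42) are past the line in both, Ddx58 (1.89) in treated cells alone, and Cxcl10 changes side, from 1.18 to -0.79.

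For the response difference, 2 members were counted higher (Cxcl10 and Ifi35) and 2 lower (Ddx58 and Irf1). The background was 10.4% higher and 3.29% lower, and the members' shares were 7.69% in each direction. The member median was -0.22 against -0.01 over all genes. With a pseudocount of 5 FPKM, 0 members were higher and 1 was lower (Ddx58), beside 612 and 159 of all genes. Ccl2, at -0.90, was the member nearest to the step without reaching it.

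Beyond the members, 153 other genes of these pathways were listed, of which 151 were measured and 95 passed the filter. In the p53+/+ response 16 were higher and 1 was lower, beside 11.4% and 2.78% of all genes. The p53-/- response had 0 of either, beside 0.377% and 0.461% of all genes. In untreated cells 13 were higher in p53-/- cells and 0 lower, beside 3.51% and 3.14%. In treated cells the counts were 16 and 8, beside 6.72% and 13.0%. The response difference gave 11 higher and 3 lower, beside 10.4% and 3.29%.

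Interferon ligands were not detected at any useful level. Of 10 ligand genes, among them Ifnb1, Ifng and 4 interferon alpha genes, 9 were listed at 0 in all 4 libraries and Ifnk reached at most 0.0760 FPKM. None passed the filter.

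Of 17 other nucleic acid sensors and adaptors past the filter, the p53+/+ response had 5 higher and 0 lower, beside 11.4% and 2.78% of all genes. Zbp1, a sensor of Z-form nucleic acid, stood at 0.775 and 5.26 FPKM (1.82). Ikbke, the kinase IKK epsilon that activates IRF3, stood at 0.592 and 3.86 FPKM (1.61). Both were higher after the drug, as were Traf3, an adaptor of MAVS signalling (4.02 and 9.89 FPKM, 1.12), and Trex1, a DNA exonuclease (5.50 and 12.3 FPKM, 1.03). None of the 17 reached the step in the p53-/- response or between untreated genotypes.

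Of the other IRF, JAK and STAT genes, 12 passed the filter. Socs1, a feedback inhibitor of JAK kinases, stood at 3.30 and 9.34 FPKM in p53+/+ cells (1.27) and at 8.57 and 9.04 FPKM in p53-/- cells. In untreated cells it was the 1 gene of the list higher in p53-/- cells (1.16), beside 3.51% of all genes. Over all genes, 11.4% were higher in the p53+/+ response. Like Ifi35, Socs1 was low in untreated p53+/+ cells alone.

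Of 29 other interferon-stimulated genes past the filter, 3 were higher in the p53+/+ response and 7 in untreated p53-/- against p53+/+ cells, with 0 lower in either. The shares of all genes higher in these comparisons were 11.4% and 3.51%. Igtp, an interferon gamma-induced GTPase, stood at 0.955 and 6.35 FPKM in p53+/+ cells (1.91), and Xaf1, an antagonist of XIAP, at 5.77 and 18.9 FPKM (1.55). Lgals3bp, a secreted galectin-binding glycoprotein, stood at 0.111 FPKM in untreated p53+/+ cells, 2.82 FPKM after the drug (1.78) and 3.66 FPKM in untreated p53-/- cells (2.07). Gbp2, a guanylate-binding GTPase, stood at 0.129 FPKM in untreated p53+/+ and 6.66 FPKM in untreated p53-/- cells (2.76). It was at 0.150 FPKM in treated p53+/+ cells, so it passed the filter only through the p53-/- libraries, where it is high. Igtp, Lgals3bp and Gbp2 were below 1 FPKM in untreated p53+/+ cells, so a lower call against that library was not open to them.

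Of 27 other NF-kB pathway genes past the filter, 4 were higher and 1 was lower after the drug in p53+/+ cells, and 0 differed by the step between untreated genotypes. The background of the p53+/+ response was 11.4% higher and 2.78% lower. Bcl3, an IkB-family co-activator of p50 and p52, stood at 34.3 FPKM in p53+/+ cells before and 7.96 FPKM after the drug (-1.98) and at 39.7 and 33.6 FPKM in p53-/- cells. As with Ddx58, the treated p53+/+ library was the low one. Map3k14, the kinase NIK of the alternative pathway, stood at 0.987 and 5.30 FPKM in p53+/+ cells (1.66), Cd40, a receptor upstream of it, at 0.510 and 2.52 FPKM (1.22), and Cyld, a deubiquitinase that restrains NF-kB, at 2.59 and 7.17 FPKM (1.19).

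Of 30 cytokines and other NF-kB targets, 5 were listed at 0 in all 4 libraries and 10 passed the filter. Cxcl11, which overlaps Art3, was the 1 gene counted higher in the p53+/+ response (1.47). In untreated cells 5 were higher in p53-/- cells and 0 lower, beside 3.51% and 3.14% of all genes. Csf1, the macrophage growth factor, stood at 0.147 FPKM in untreated p53+/+ and 4.79 FPKM in untreated p53-/- cells (2.34), and Tnfaip2 at 0.162 and 3.46 FPKM (1.94). Both genes were below 1 FPKM in untreated p53+/+ cells, so a lower call was not open to them. The fibroblast marker sums given for the members hold beside these counts too, and their part was not tested.

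**Figure D5:**
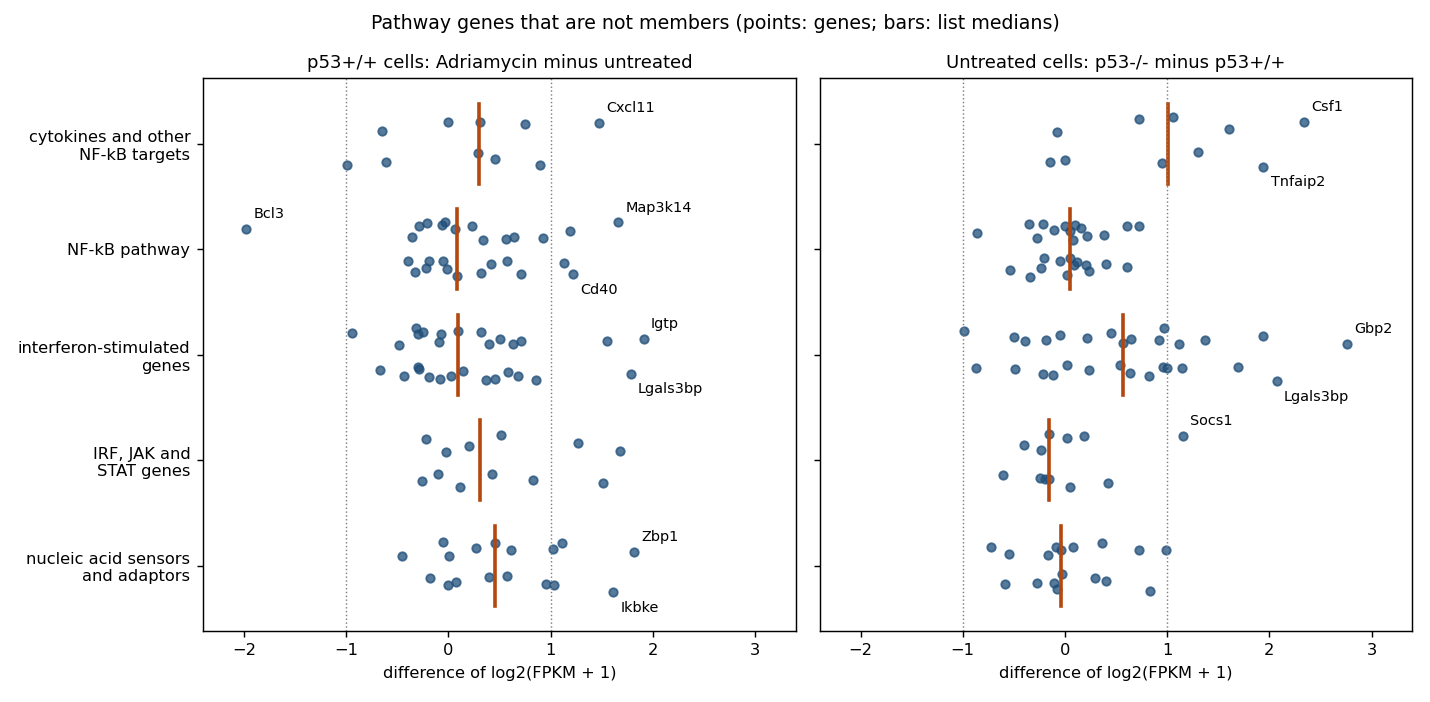
Differences of log2(FPKM + 1) for the 95 pathway genes that are not members and passed the filter, by list, in the p53+/+ response (left) and between untreated genotypes (right). Points are genes with a vertical scatter for legibility, of which some are labelled, bars the medians of the lists, and dotted lines mark a difference of 1. Bcl3 (-1.98) is the 1 gene past the left line in the p53+/+ response, and Gbp2 (2.76) has the widest difference between untreated genotypes.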

How the data were processed

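Poly(A) RNA was sequenced from 4 libraries, 1 per group of genotype and treatment; the labels also name an exome enrichment kit, and no label says whether strand was kept. The authors deposited 1 table per library with FPKM per transcript, the 95% bounds of each FPKM and the read coverage (a signal), laid out as Cufflinks output per the file headers. CASAVA 1.8.1, TopHat2 2.0.5, TopHat, Cufflinks and the build mm9 are named in the submitters' processing notes, with no role or order, while neither a Cufflinks version nor an annotation is stated there.

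Of 30769 transcripts, 30227 were named from RefSeq and 180 from GENCODE M21, both of GRCm38 and used for names and promoters only, and 362 had no name. Positions of genes are given in mm9 as deposited, counted from 1. The 802 transcripts of short RNA genes were left out. FPKM was summed per gene, a pseudocount of 1 FPKM was added, and genes at 1 FPKM or more in at least 1 library were compared. A difference of at least 1 on the log2 scale (2-fold) was counted. The deposited values are not counts and each group has 1 library, so no test was run. Aligned sequence was estimated as deposited read coverage times transcript length, summed over transcripts.

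The members and lists were chosen with earlier results of these data known. Each member that reached the step is given in all 4 libraries. Of each other pathway list, up to 4 genes with the largest p53+/+ response and up to 2 with the largest difference between untreated genotypes are named, where they reached the step; some results that this rule names are not reported here. Trp53, Mdm2 and Cdkn1a served as a check of genotype and drug, and the marker genes and the neighbours of Cxcl10 were named after their values were seen. Alternatives were other pseudocounts, filters, scalings, a smaller step, 1 transcript per gene and transcripts inside their bounds. The calculations used Python 3.11.15, pandas 2.3.3, numpy 2.4.6 and matplotlib 3.10.9 and were tested on simulated data.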

Additional observations from a re-analysis of the deposited data

Results flagged for a closer look

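The responses of Ddx58 to Adriamycin had opposite signs in the genotypes, -1.69 in p53+/+ and 0.21 in p53-/- cells, a response difference of -1.89. Those of Irf1 were -0.91 and 0.14, a response difference of -1.05, which was -0.97 under median ratio scaling. The p53-/- responses of both genes were short of the step and the bounds of their untreated and treated p53-/- libraries overlap. With 1 library per group, neither difference between the genotypes was tested.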

How the results depend on the processing

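No paired analysis was possible because each group has 1 library and the labels carry no replicate numbers, and for the same reason no library could be left out. None of the 17 member differences of at least 1 changed sign under any alternative run. The member medians near 0 did, running from -0.31 to 0.02 in the p53+/+ response and from -0.02 to 0.06 between untreated genotypes. The 17 differences all stayed past the step with a pseudocount of 0.1 FPKM, upper quartile scaling, 1 transcript per gene or transcripts inside their bounds. Removing the filter or using a 1.5-fold step cannot lose a call. A filter of 5 FPKM kept 16 of them, as Isg15 was no longer compared. A pseudocount of 5 FPKM, which shrinks low genes by construction, left 7 past the step, median ratio scaling 16 and quantile normalization 15. The following counts of members moved by more than 1.5 times. With a pseudocount of 0.1 FPKM, 2 were lower in the p53+/+ response and 4 in the response difference. With a pseudocount of 5 FPKM, 1 was higher and 0 lower in the p53+/+ response, 1 was higher in untreated p53-/- cells, 0 were lower in treated p53-/- cells, and the response difference had 0 higher and 1 lower. With the transcript of highest mean FPKM, Irf9 made 1 higher in the p53-/- response (1.52) and 1 lower in untreated p53-/- cells (-1.61). Median ratio scaling left 1 lower in the response difference. Quantile normalization gave 1 higher and 2 lower in the p53+/+ response and 1 higher in the response difference. A 1.5-fold step gave 2 lower in the p53+/+ response, 1 higher in the p53-/- response, 3 lower in treated p53-/- cells and 5 lower in the response difference. Smaller moves were 5 higher in treated p53-/- cells with a pseudocount of 0.1 FPKM, 3 higher in the p53+/+ response and 3 higher and 3 lower in the response difference with 1 transcript per gene, 3 lower in the response difference with quantile normalization, 4 higher in untreated p53-/- cells with the filter of 5 FPKM, and, with a 1.5-fold step, 3 higher in the p53+/+ response, 7 in untreated and 6 in treated p53-/- cells and 3 in the response difference. Where no cause is named, the cause was not tested. Quantile normalization also moved the median of all genes in the p53+/+ response from 0.05 to -0.09 and that of the members from -0.03 to -0.31, and its calls over all genes from 1481 higher and 362 lower to 1110 and 588. In treated cells the calls moved from 875 and 1697 to 1160 and 1460, and in the response difference from 1357 and 428 to 1153 and 609. Few reads stand behind the values of Isg15 and of the 12 members below 1 FPKM. The same holds for Cxcl10 in untreated p53+/+ cells (read coverage 0.709). It also holds for Ccl2 in untreated and treated p53+/+ cells (1.22 and 0), so ratios against these values are uncertain.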
